A study of Mus musculus with 12 samples.

Results

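Formalin-fixed frozen sections of the adult mouse hippocampus were compared with fresh-frozen sections that had been permeabilized in the same way, with heated TE buffer. All 12 replicates of fixed sections and all 12 of TE-permeabilized fresh sections entered the comparison, which were 24 of the 48 replicates in the count table and came from 6 of the 12 libraries. Every sample is labelled as taken from male ICR mice aged 8 weeks, with no transgene and no drug. The tissue of the fixed group had been treated with 4% PFA and the tissue of the fresh group had not, although by the protocol every frozen section met PFA briefly after sectioning. In each group CA1, CA3 and DG were photo-irradiated in 4 replicates each, and the 4 replicates of a region carried different barcodes in 1 library. A difference between the fixed and the fresh section of a region therefore cannot be told apart from a difference between their libraries. The description of the series has CA2 where the sample titles have CA3, and the titles were followed. The study describes the replicates as biological. Which mouse gave which replicate is not given in the sources used here, and p-values measure the spread between these replicates.

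In photo-isolation chemistry (PIC), mRNA is reverse-transcribed inside the section from an oligo(dT) primer blocked by a light-sensitive group, and cDNA outside the irradiated region cannot be amplified. The libraries follow CEL-seq2, which sequences the end of a transcript next to its poly(A) tail and counts each molecule once by its UMI, a random tag on the primer. Formaldehyde joins RNA and proteins by short bridges that heat partly undoes, and a transcript is counted only if it stays in the section and its poly(A) tail, or an internal run of A, can be reached by the primer. Fixation was compared here for every transcript class and for gene groups with known functions.

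Fixed replicates held between 52800 and 307145 UMIs, with a median of 122520.5, and fresh replicates between 294445 and 1111804, with a median of 629964.5. The lower depth of the fixed replicates limits genes with few UMIs. The biological coefficient of variation among replicates of a region was 0.161 in fresh and 0.155 in fixed sections. The irradiated regions carried their known markers in both groups. Prox1, the transcription factor of granule cells, had a mean of 1075 CPM (UMIs scaled to a common total per replicate; SD 151, n = 4) in fresh DG, 136 in fresh CA1 and 199 in fresh CA3, and in fixed sections 667 ± 122 in DG, 51.0 in CA1 and 68.2 in CA3. Wfs1, a marker of CA1 pyramidal cells, had 345 ± 73.7 CPM in fresh and 306 ± 131 in fixed CA1, while its means were at most 58.8 CPM in the other regions.

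Of 15878 genes with at least 10 UMIs over the 24 replicates, 7326 (46.1%) differed between fixed and fresh sections at an adjusted p under 0.05, with region as a covariate in the quasi-likelihood test of edgeR. Among them 3266 genes (20.6% of those tested) were higher and 4060 (25.6%) were lower in fixed sections, and these shares are the background for each gene group given here. The differences were large, since 2013 of the called genes were more than 2-fold higher and 2900 more than 2-fold lower. All log2 fold changes have fixed over fresh sections, and their median over all genes tested was -0.18. Of the 12845 nuclear protein-coding genes tested 22.9% were higher and 21.9% lower, with a median of -0.04. These values are the closer background for lists of protein-coding genes. The same sign in CA1, CA3 and DG, each fitted alone, was found for 6025 of the called genes, and 5900 of them were also called when the replicates of a library were summed, with 3 libraries against 3. The 12 fixed values lay above all 12 fresh values, after scaling, for 375 genes (2.36%) and below them for 705 (4.44%), together 6.8%. Among the 6379 genes averaging 10 UMIs or more, 29.7% were higher and 33% lower. How many genes were higher depended on the scaling. The part of called genes that was higher was 44.6% here, 31.4% with the size factors of DESeq2 and 32.4% with TMM factors computed over all genes tested.

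The make-up of the libraries by transcript class shifted. Fixed sections had smaller shares of long noncoding and intron-derived entries and larger shares of mitochondrially encoded mRNAs and of processed pseudogenes, which are intronless copies of mRNAs inserted in the genome. TEC entries, regions with polyadenylated transcripts that still await proof as genes, held between 1.29% and 2.35% of the UMIs of fresh replicates, with a median of 1.79%, and between 0.275% and 0.523% of fixed replicates, with a median of 0.362%. The groups did not overlap, and the mean share was 4.77-fold lower in fixed sections. For lncRNA the share was 1.69% to 2.36% in fresh and 0.825% to 1.08% in fixed replicates, again without overlap. Processed pseudogenes rose from 0.275% to 0.429% in fresh to 1.31% to 2.01% in fixed replicates, a 4.69-fold difference of the means. Mitochondrially encoded mRNAs took 1.81% to 3.54% of fresh and 3.56% to 7.20% of fixed UMIs, and the ranges were separate by a narrow margin. Each of these differences had the adjusted p of 2e-05 or 2.5e-05 over 10 classes in a two-sided permutation test within regions, where the smallest unadjusted p is 1e-05. In each region alone they had an exact permutation p of 0.0286, the smallest that 4 replicates against 4 can give.

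**Figure D1:**
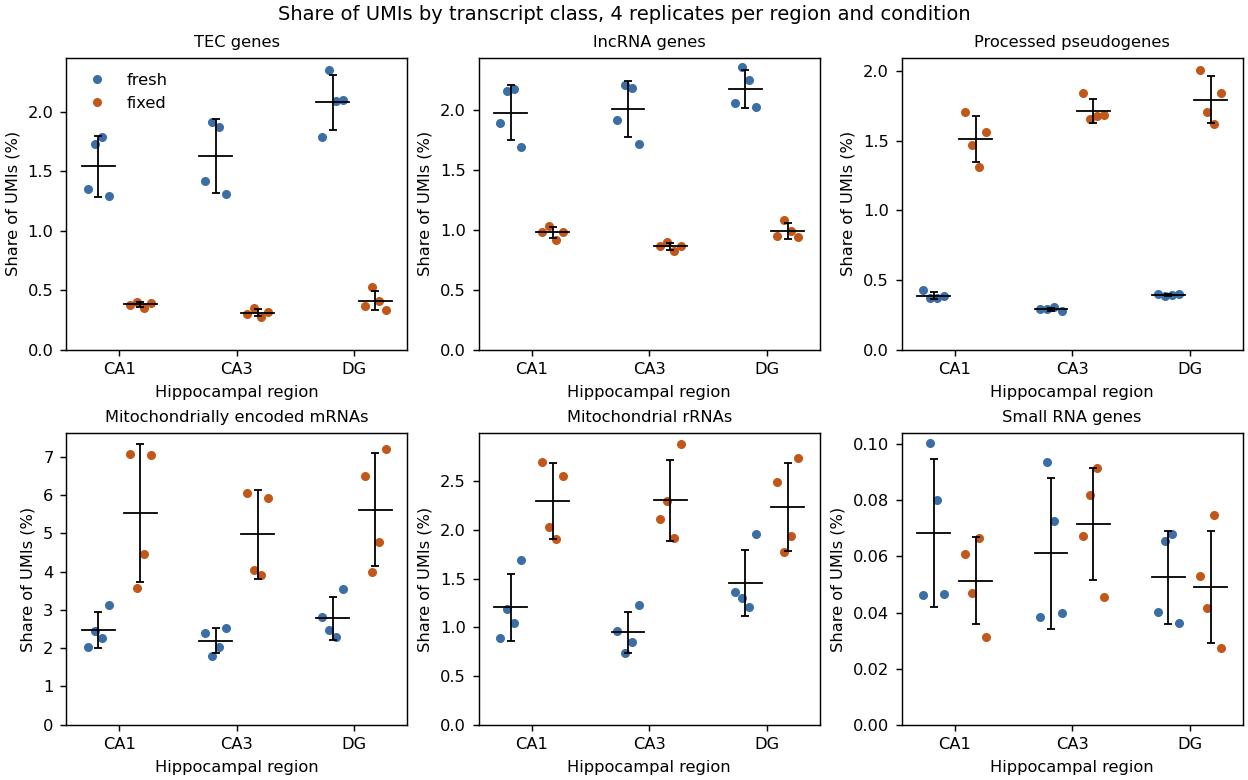
Share of UMIs (%) in 6 transcript classes for each replicate of fresh (blue) and fixed (orange) sections in CA1, CA3 and DG, with the mean and SD of 4 replicates. TEC and lncRNA shares lie lower and the shares of processed pseudogenes and mitochondrially encoded mRNAs higher in every fixed group, whereas small RNA shares overlap.

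Nuclear protein-coding genes made up 91.3% ± 0.844 of the UMIs of fresh and 87.9% ± 1.99 of fixed replicates (mean ± SD, n = 12). The mean fell by 3.47 percentage points, while the mean of mitochondrially encoded mRNAs went from 2.48% to 5.38%. The direction did not hold under other settings. Outside mitochondrially encoded genes the mean was 0.322 points higher in fixed sections (permutation test, p = 0.0889), and with a correction for UMIs drawn more than once it was 0.307 points higher (permutation test, p = 0.659). Small RNA genes such as snRNAs and snoRNAs, most of which lack a poly(A) tail, had 0.0607% ± 0.0226 and 0.0574% ± 0.0199 of the UMIs, a difference smaller than the spread between replicates (permutation test, p = 0.70). The single genes of this class were not unchanged, since 31 of 70 tested were called lower and 5 higher. Other pseudogenes were higher as a class, with 0.652% ± 0.215 against 1.22% ± 0.443 (permutation test, adjusted p = 0.00101), but not in CA1, where the means were 0.780% and 0.691%.

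Most TEC entries lie inside introns. In GENCODE M21 on GRCm38, 1364 single-exon TEC entries of the count table were within an intron of a protein-coding gene and on its strand, and their share fell from a mean of 1.29% in fresh to 0.219% in fixed replicates, 5.91-fold. TEC entries on the opposite strand of a gene were 3.92-fold lower and those outside protein-coding genes 2.48-fold lower. Among the 951 tested intronic entries of the TEC and lncRNA classes on the strand of their host, 616 were called lower and 5 higher, and 846 of the 939 with a tested host had a lower log2 fold change than the host. The 539 host genes themselves moved less, with 207 lower, 95 higher and a median of -0.24. Reads of an intronic entry on the strand of its host cannot be told apart from unspliced RNA of that host. The printed counting command has no strand option, so that antisense RNA cannot be told apart from them either.

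Some intronic entries were not seen at all in fixed sections. Gm43829 lies in an intron of Kcnip4, a potassium channel interacting protein (5:48712090-48715891, minus strand), and had 17.6 to 88.6 CPM in fresh replicates and 0 UMIs in 12 of 12 fixed replicates, at least 20.3-fold lower. Gm37628, in an intron of the adhesion receptor gene Adgrb3 (1:25686062-25691501, minus strand), had 10.2 to 67.5 CPM in fresh replicates and none in fixed ones, at least 17.6-fold lower. These bounds take 3 UMIs over the group as the limit of a count of 0 and cover counting error only. Gm44800 and Gm44801, both in an intron of Fam155a on chromosome 8, had log2 fold changes of -5.72 ± 1.57 (SE) and -5.25 ± 1.02. Gm45177, an intronic entry on chromosome 7, and Gm49344 on chromosome 10 had -5.46 ± 1.45 and -5.48 ± 1.40, and no fixed replicate of either reached the fresh range. The hosts did not follow in parallel. Kcnip4 was higher in fixed sections with a log2 fold change of 1.33 ± 0.14, while Adgrb3 had -1.11 ± 0.14 and Fam155a -1.23 ± 0.12 (edgeR, adjusted p of 1e-12, 1.66e-11 and 1.5e-15, 12 replicates against 12). These 3 hosts were named after their values were seen.

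**Figure D2:**
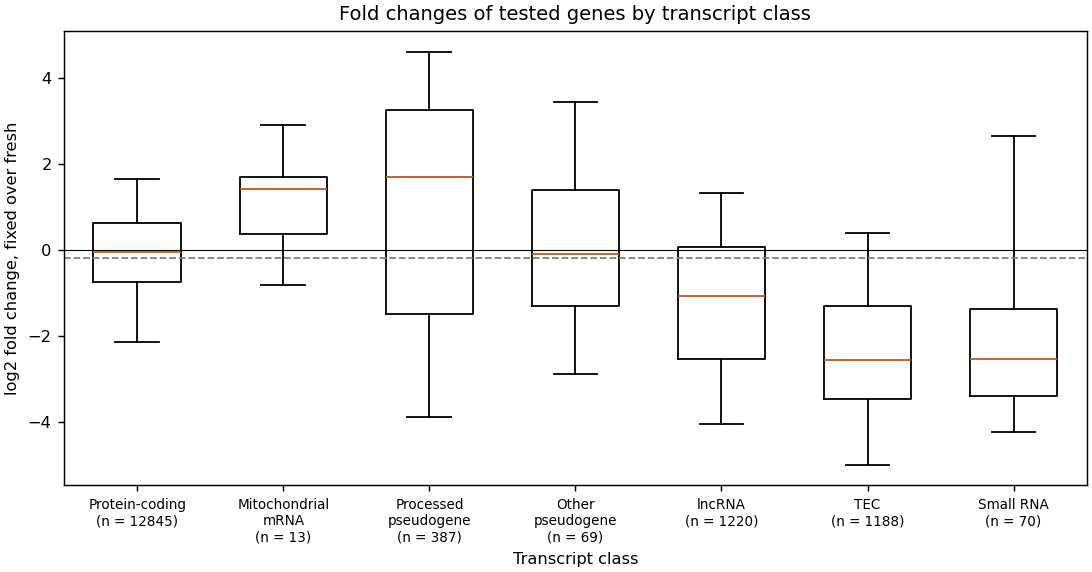
Log2 fold changes (fixed over fresh) of the genes tested in 7 transcript classes, with boxes from the lower to the upper quartile, the median in orange, whiskers from the 5th to the 95th percentile and the median of all genes tested as a dashed line. TEC entries (median -2.55), small RNA genes (-2.52) and lncRNA (-1.07) lie below that line and processed pseudogenes (1.70) above it.

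Across the lncRNA class 390 of 1220 tested genes were lower and 65 higher. The median log2 fold change was -1.07, or -0.44 with the 272 genes without UMIs in fixed sections set to their bound, against -0.18 and -0.08 over all genes. For TEC entries 717 of 1188 were lower and 13 higher, with medians of -2.55 and -1.32. The small RNA genes had medians of -2.52 and -0.54, and 39 of the 70 tested had no UMIs in fixed sections. Of 11 well-known noncoding RNAs that are held in the nucleus, 9 were lower, 1 was higher and the median was -1.19. Malat1, an abundant RNA of nuclear speckles, had 1991 to 3905 CPM in fresh replicates with a median of 2890, and 188 to 738 CPM in fixed replicates with a median of 480. The ranges were far apart, with a log2 fold change of -2.58 ± 0.12 (edgeR, adjusted p = 3.97e-33) that was between -2.81 and -2.34 in the 3 regions. Meg3 and Rian, maternally expressed noncoding RNAs of the same imprinted cluster, differed in size of change, with -1.19 ± 0.10 and -3.52 ± 0.39. Neat1, which builds paraspeckles, had -1.19 ± 0.31. The member that was higher was Firre, an RNA retained at chromatin, with a median of 4.24 CPM in fresh and 20.3 CPM in fixed replicates and overlapping ranges. Neat1 and Firre were named after their values were seen.

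The fall extended to Cdr1os, the noncoding precursor of a circular RNA that binds miR-7 (194 to 541 CPM in fresh and 14.9 to 78.3 in fixed replicates, -2.48 ± 0.21), and to C78859 on chromosome 8 (-2.28 ± 0.19). The lncRNAs with the largest fall were 4932422M17Rik on chromosome 5, with 19.5 to 80.1 CPM in fresh and 0 to 4.12 CPM in fixed replicates (-5.83 ± 1.54), and Gm12122 on chromosome 11, with 32.4 to 112 and 0 to 7.45 CPM (-5.42 ± 0.98). Snhg11, a noncoding host of snoRNAs in neurons, which the annotation lists as protein-coding, had 1114 to 2009 and 186 to 862 CPM (edgeR, adjusted p = 3.42e-20). A further class of long noncoding entries to which the count table gives no name went the other way in its share, from 0.0723% to 0.185%, although 24 of its 69 tested genes were lower and 4 higher. Its share was carried by Gm26825 on chromosome 5, which had 91.9 to 184 CPM in fresh and 788 to 2102 CPM in fixed replicates (log2 fold change 3.58 ± 0.12; edgeR, adjusted p = 2.37e-40). Gm26623 on chromosome 12 was higher too, with 3.91 to 10.2 and 55.3 to 303 CPM.

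The mitochondrial genome encodes core subunits of the respiratory chain and of ATP synthase, and its mRNAs carry short poly(A) tails. Of its 13 mRNAs, 9 were higher in fixed sections, 2 were lower and the median log2 fold change was 1.42, or 0.86 with a correction for UMIs drawn more than once. A UMI of 6 bases can take 4096 forms, so that repeated tags lower the counts of genes with many UMIs. The share of these mRNAs was still 2.58 percentage points higher in fixed sections with the correction, against 2.90 points without it. The rise differed widely from gene to gene. mt-Nd4, a subunit of complex I, had 3337 to 9744 CPM in fresh and 9493 to 21235 CPM in fixed replicates (1.65 ± 0.12), and mt-Nd1 had 1.32 ± 0.11. With the correction these genes had 1.01 and 0.54. In some fresh replicates the UMIs of both came near the number of forms of the tag, where a correction is unstable. The size of their corrected change and of the corrected share is therefore uncertain. mt-Atp6, a subunit of ATP synthase, had 42.6 to 124 CPM in fresh and 282 to 733 CPM in fixed replicates, without overlap (2.90 ± 0.14; edgeR, adjusted p = 3.82e-32). mt-Nd3 (3.60 ± 0.30) and mt-Co2 (2.80 ± 0.12) were also separate between the groups, and the correction left these 3 genes at 2.91, 3.61 and 2.81. The genes called lower were mt-Co1, a subunit of cytochrome c oxidase, with 1001 to 2118 CPM in fresh and 436 to 1078 CPM in fixed replicates (-0.81 ± 0.11), and mt-Nd5 (-0.51 ± 0.10), which had -0.99 and -0.76 with the correction. Several of these genes share long stretches with nuclear copies, and how the alignment divided reads between them was not tested. mt-Co1, mt-Co2 and mt-Nd5 were named after their values were seen.

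Both mitochondrial rRNAs were counted. In the counts as deposited mt-Rnr2 had 3883 to 13901 CPM in fresh and 13140 to 26174 CPM in fixed replicates, a log2 fold change of 1.61 ± 0.12 (edgeR, adjusted p = 5.75e-20), whereas mt-Rnr1 had 3522 to 5868 and 1777 to 4630 CPM, a log2 fold change of -0.39 ± 0.09 (adjusted p = 0.000213). mt-Rnr2 reached 4317 UMIs in a fresh and 4036 UMIs in a fixed replicate, near or above the number of forms of the tag, where a correction is unstable. With the correction mt-Rnr2 had -0.66, mt-Rnr1 had -1.26 and the share of mitochondrial rRNA was 2.52 percentage points lower in place of 1.08 points higher. No direction can therefore be given for mt-Rnr2 or for the share, while mt-Rnr1 was called lower with and without the correction. Counts were high enough for repeated tags to matter, with 25% or more of the possible forms in use, for 114 genes in a fresh replicate and for 11 in a fixed one. The log2 fold changes of some nuclear genes with many UMIs were lower with the correction, as for Ppp3ca from 1.12 to 0.69, Map1b from -0.54 to -0.93, Syt1 from -0.55 to -0.85 and Malat1 from -2.58 to -3.07.

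Processed pseudogenes stood out by the direction of their change, since 209 of 387 tested were higher and 66 lower, with a median log2 fold change of 1.70. The direction differed by likeness to a parent gene. Of 313 processed pseudogenes that share a stretch of 50 bases with a protein-coding transcript 200 were higher and 34 lower (median 2.46), and of the 74 without a shared stretch 9 were higher and 32 lower (median -2.26). The median was largest for the 188 copies of cytosolic ribosomal protein genes, at 2.89, with 152 higher and 7 lower, while the 63 parent genes had a median of 0.97. In 150 of 181 pairs the copy had the larger fold change. The counting command that the study prints sets no option for reads that align in several places. How reads that align to both a gene and its copy were counted was not tested, and values of both are uncertain.

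The pairs of parent and copy show how unequal the changes were. Rpl37rt on chromosome 5, a transcribed copy of Rpl37, had 2.70 to 258 CPM in fresh and 812 to 2057 CPM in fixed replicates, while Rpl37 itself had 179 to 504 and 473 to 991 CPM (log2 fold changes of 5.25 ± 0.24 and 1.47 ± 0.12). Gm7336 on chromosome 7, of whose 50-base stretches 95.6% occur in the mRNA of the glycolytic enzyme Gapdh, had 1.95 to 26.5 CPM in fresh and 174 to 479 CPM in fixed replicates. Gapdh had 4.07 to 64.3 and 0 to 39.1 CPM, with fully overlapping ranges (0.17 ± 0.34; edgeR, adjusted p = 0.712). The order was the same for Gm9843 and its parent Fau (4.11 ± 0.22 and -1.18 ± 0.53) and for Rpl28-ps1 and Rpl28 (4.08 ± 0.20 and 0.62 ± 0.36). Gm9703, a copy of Rpl30, and Gm42814, a copy of Rpl21, had log2 fold changes of 4.09 ± 0.25 and 4.07 ± 0.24, and their parents 1.81 ± 0.12 and 1.05 ± 0.27. The parents Rpl37, Fau, Rpl28, Rpl30 and Rpl21 were named after their values were seen.

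Sumo2 had the largest rise among protein-coding genes with an average of 10 UMIs or more per replicate and one sign in the 3 regions. It encodes a small protein that is attached to others as a signal. There were 0 to 4.07 CPM in fresh replicates with a median of 2.86, and 52.2 to 322 CPM in fixed replicates with a median of 161. No fixed replicate came near the fresh range (log2 fold change 6.30 ± 0.38; edgeR, adjusted p = 1.34e-36). Psmb5, a catalytic subunit of the proteasome, went from 0 to 24.3 CPM to 36.9 to 246 CPM (4.54 ± 0.31). Sumo2 shares 17.2% and Psmb5 54.1% of its 50-base stretches with other genes. Calm2, which encodes the calcium sensor calmodulin, had the smallest adjusted p and the largest rise of the protein-coding genes that averaged 100 UMIs or more, with 300 to 589 CPM in fresh and 1563 to 3376 CPM in fixed replicates (2.62 ± 0.09; edgeR, adjusted p = 9.27e-40).

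In the other direction, Cnot3, a subunit of the CCR4-NOT complex that removes poly(A) tails (7:3645268-3661109, plus strand), had 502 UMIs over the fresh replicates, 28.0 to 95.6 CPM, and none in any of the 12 fixed replicates, at least 30.8-fold lower. Hba-a1, a globin of red blood cells, had 67.9 to 283 CPM in fresh and 0 to 7.06 CPM in fixed replicates (-5.86 ± 0.90). Aqp4, the water channel of astrocyte end-feet, had 277 to 933 CPM in fresh and 14.5 to 120 CPM in fixed replicates, with a log2 fold change of -2.80 ± 0.17 (edgeR, adjusted p = 9.27e-29) that lay between -2.83 and -2.73 in the 3 regions. Nktr, a cyclophilin-related protein, had 256 to 427 and 33.2 to 84.7 CPM (-2.54 ± 0.18). Fixed and fresh replicates were separate for each of these 4 genes.

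**Figure D3:**
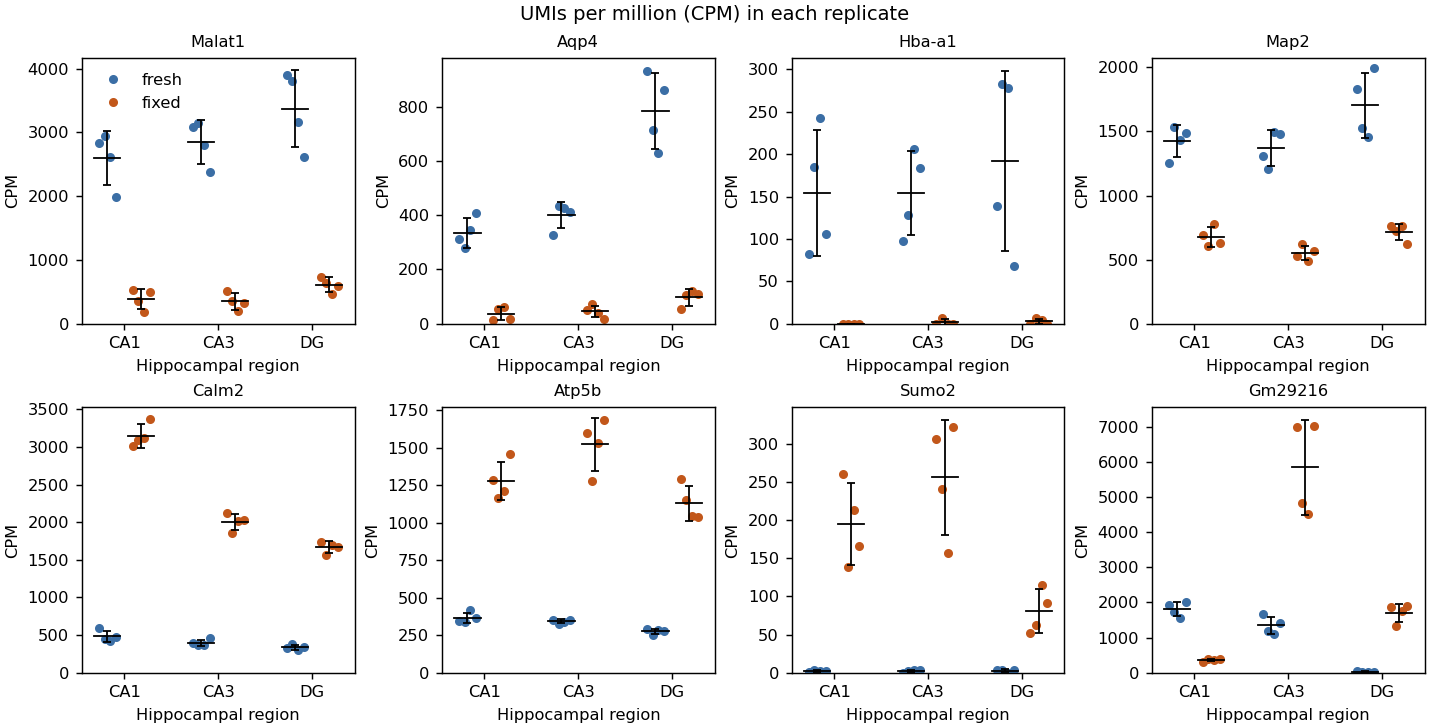
Level in CPM of 8 genes in each fresh (blue) and fixed (orange) replicate by region, with the mean and SD of 4 replicates. Malat1, Aqp4, Hba-a1 and Map2 lie lower and Calm2, Atp5b and Sumo2 higher in fixed sections of every region, while the pseudogene Gm29216 is lower in CA1 and higher in CA3 and DG.

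Long transcripts were lower in fixed sections than short ones. Across 12844 protein-coding genes, the log2 fold change had a Spearman correlation of -0.305 with the length of the transcript, and between -0.315 and -0.296 in the regions alone. Genes are not independent, and all share the same libraries, so that no p is given. In the quintile of the shortest transcripts, with a median of 1391 bases, 39.1% of genes were called higher and 9.42% lower, with a median log2 fold change of 0.48. In the quintile of the longest, with a median of 7038 bases, 10.5% were called higher and 41.7% lower, with a median of -0.47. Coding length (-0.277), gene span (-0.232), the longest run of A (-0.196), the number of exons (-0.190) and the length of the 3′ UTR (-0.172) had correlations of the same sign. These features are related to each other, and their separate parts were not tested. GC content had 0.083. Over the 6078 genes averaging 10 UMIs or more, the correlation with transcript length was -0.397.

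**Figure D4:**
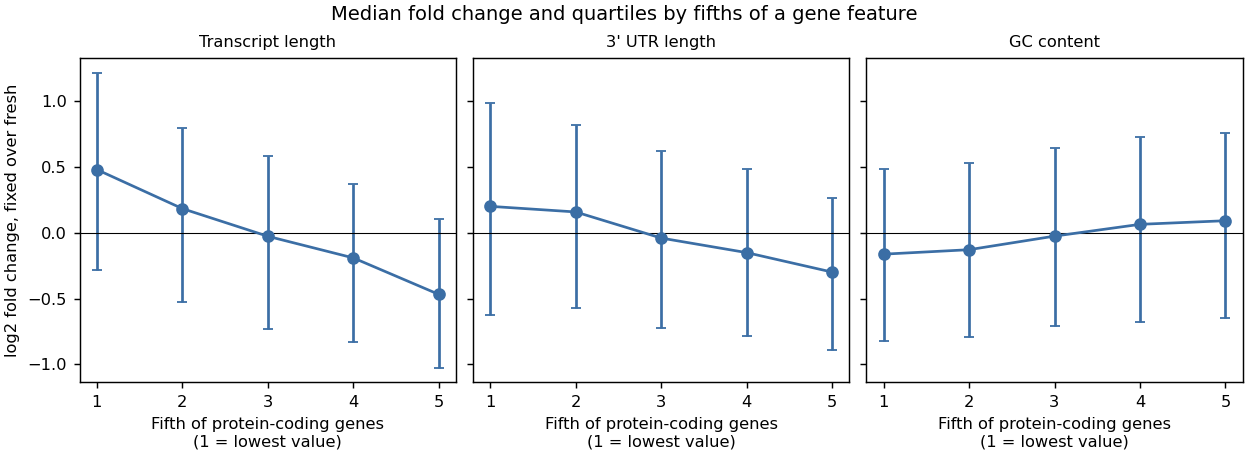
Median log2 fold change (fixed over fresh) of protein-coding genes in quintiles of transcript length, 3′ UTR length and GC content, with bars from the lower to the upper quartile. The median falls from 0.48 to -0.47 over the quintiles of transcript length and from 0.20 to -0.30 over those of 3′ UTR length, and changes little with GC content.

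Genes of energy metabolism, translation and protein turnover were higher more often than lower. Of 99 tested nuclear genes of the respiratory chain, 74 were higher and 6 lower, with a median log2 fold change of 1.14, against 20.6% higher and 25.6% lower over all genes. Their summed level was 10175 to 14415 CPM in fresh and 20240 to 24474 CPM in fixed replicates, without overlap. Atp5b, the catalytic subunit of ATP synthase, had 254 to 416 CPM in fresh and 1037 to 1686 CPM in fixed replicates (2.16 ± 0.09; edgeR, adjusted p = 3.98e-34), and Atp5a1, its partner in the ring, 358 to 584.5 and 863 to 1487 CPM. Ndufv1 and Ndufs3, core subunits of complex I, had 3.44 ± 0.17 and 3.24 ± 0.22. Glycolytic enzymes were higher in 10 of 16 cases and lower in 1, with a median of 0.69, and their summed level overlapped, with 3148 to 4179 CPM in fresh and 3422 to 7065 CPM in fixed replicates. Aldoa (0.96 ± 0.11) and Pkm (1.04 ± 0.10) were among those higher, and the exception was Aldoc, the aldolase of astrocytes (-1.14), named after its value was seen.

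Of 79 cytosolic ribosomal protein genes 53 were higher and 6 lower, with a median of 0.96, and of 75 genes for mitochondrial ribosomal proteins 52 were higher and 3 lower, with a median of 1.03. Rpl39 had 16.2 to 50.9 CPM in fresh and 184 to 385 CPM in fixed replicates (3.54 ± 0.15), Rpl10 had 2.86 ± 0.19, Rps21 had 1.83 ± 0.11 and Rpl4, one of the longer members, 0.54 ± 0.10. Mrps18c and Mrpl27 of the mitochondrial ribosome were higher in every fixed than in every fresh replicate (2.90 ± 0.23 and 2.67 ± 0.26). The mitochondrial members that were lower were Mrpl14, Mrpl48 and Mrps27 (-1.40 to -0.99), named after their values were seen. Translation factors were higher in 37 of 64 cases and lower in 7, with a median of 0.61. The neuronal elongation factor Eef1a2 went from 190 to 335 CPM to 854 to 1605 CPM (2.26 ± 0.10), and Eif5a had 3.07 ± 0.27, whereas Eif4g2 was lower (-0.46 ± 0.11). The lower members of this list include kinases and a methyltransferase that act on the factors.

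The ribosomal and respiratory genes are short, since 71 of the 79 cytosolic ribosomal and 82 of the 99 respiratory genes fell in the quintile of the shortest transcripts, which had a median of 0.48 over all protein-coding genes. The median of the list members in that quintile was 0.97 and 1.18. What part of the rise goes with length was not tested.

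Proteasome subunits were higher in 20 of 36 cases and lower in 3, with a median of 0.81. Psmd14, a deubiquitinase of the lid, had 96.4 to 179 CPM in fresh and 210 to 420 CPM in fixed replicates (1.21 ± 0.13), and Psmd3, a subunit of the regulatory particle, 3.40 to 23.9 and 43.5 to 165 CPM (2.89 ± 0.20). The lower members were Psmb7, which had no UMIs in fixed sections, Psma3 and Psma7 (-0.58 and -0.40), named after their values were seen. Of 7 precursors of ubiquitin and related modifiers 5 were higher, among them Ubb and Nedd8 (2.65 and 1.32) and Sumo2, and Rps27a and Sumo3 were lower (-0.93 and -0.51), all but Sumo2 named after their values were seen. Heat shock proteins and chaperonins were higher in 31 of 71 cases and lower in 8 (median 0.47), and genes of the secretory pathway and chaperones of the endoplasmic reticulum in 12 of 22 cases (median 0.67), with none lower in edgeR, none lower at an unadjusted p under 0.05 and 2 lower in DESeq2. In that group Ssr3, a subunit of the translocon, had 2.01 ± 0.17 and Dad1, a subunit of the oligosaccharyltransferase, 1.45 ± 0.14.

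**Figure D5:**
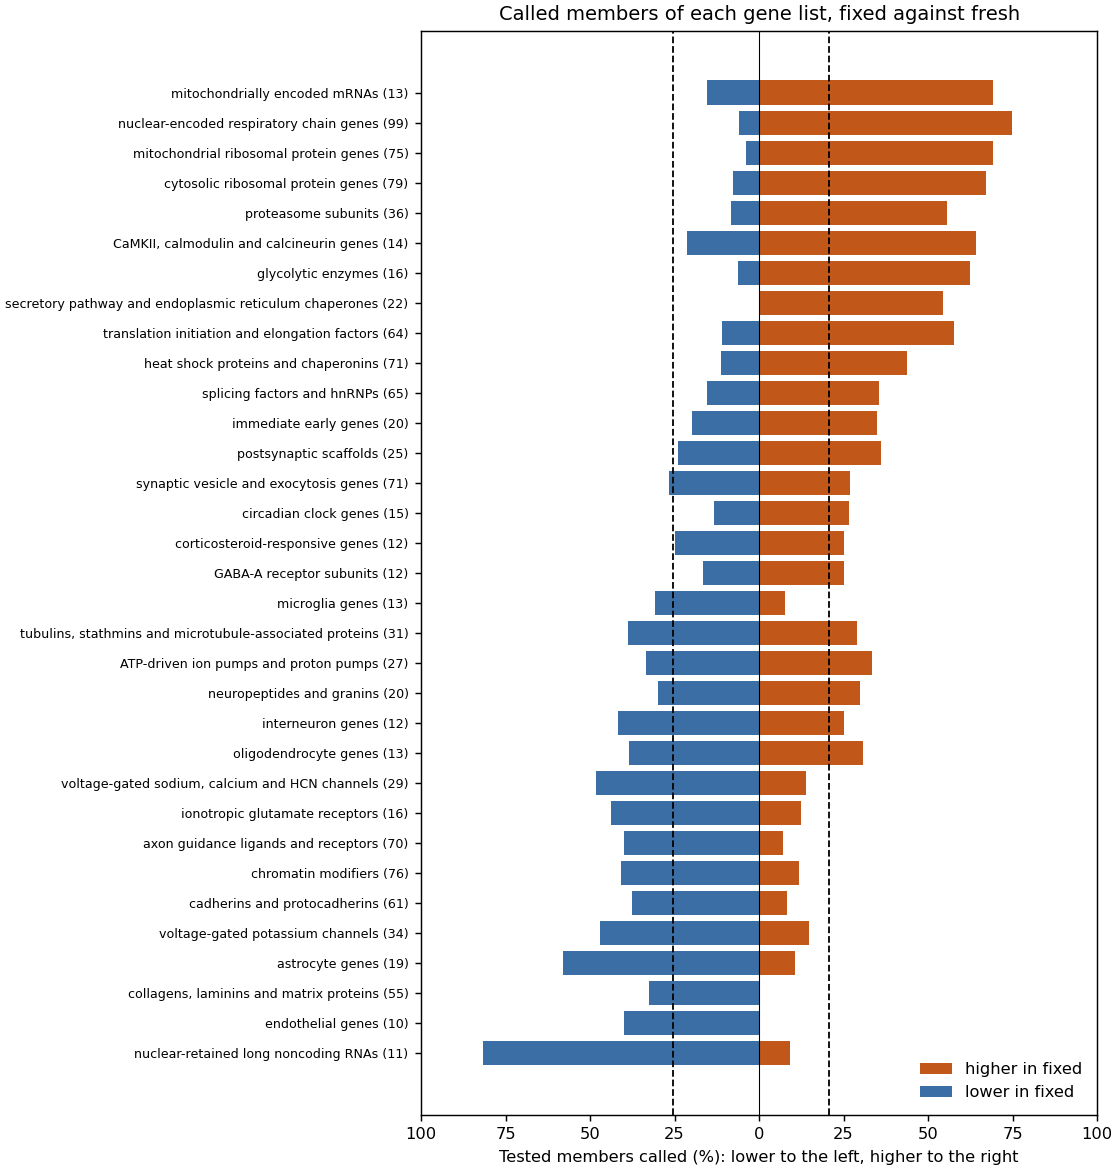
Share of the tested members of gene lists (number in brackets) that was called higher (orange, to the right) or lower (blue, to the left) in fixed sections. Dashed lines are at the shares over all genes tested, 20.6% and 25.6%. Drawn are lists of functions and cell types with at least 10 tested members, ribosomal protein genes, nuclear-retained RNAs and mitochondrially encoded mRNAs. Other lists of transcript classes, such as zinc finger protein genes, are not drawn. Lists are ordered by their median log2 fold change, from nuclear-retained RNAs at the bottom to mitochondrially encoded mRNAs at the top.

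Genes of CaMKII, calmodulin and calcineurin were more often higher than lower in fixed sections. Beside Calm2, Ppp3ca, the catalytic subunit of calcineurin, rose from 2787 to 5426 CPM to 5795 to 11586 CPM (1.12 ± 0.09). The list of CaMKII, calmodulin and calcineurin genes had 9 of 14 members higher and 3 lower, which were Camk2d, Camk2a and Ppp3cb (-1.32, -0.82 and -0.58), named after their values were seen. Camk2a, whose mRNA is carried into dendrites, did not overlap between the groups.

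Genes of channels, adhesion and chromatin were lower more often than higher. Voltage-gated potassium channels had 16 of 34 members lower and 5 higher, with a median of -0.48, or -0.40 with the member without UMIs in fixed sections at its bound. Kcna1, a channel of axons, had 283 to 609 CPM in fresh and 9.17 to 205 CPM in fixed replicates (-1.84 ± 0.16), and Kcnma1 had -0.93 ± 0.12. The members that were higher, Kcnh2, Kcnd3, Kcnab1, Kcnq5 and Kcnb2, had 0.48 to 1.46. One of the lower members of the list, Kcnq1ot1, is a noncoding RNA and no channel. Sodium, calcium and HCN channels had 14 of 29 members lower and 4 higher, with a median of -0.22. Cacna2d2, an auxiliary subunit of calcium channels, had -2.84 ± 0.43 and Cacna1d -2.26 ± 0.34, and Scn2a had 584 to 871 and 450 to 663 CPM, a log2 fold change of -0.22 ± 0.10 (edgeR, adjusted p = 0.0692) that became -0.46 and was called with the size factors of DESeq2. Scn4b, Cacnb3 and Cacna1b were among those higher (1.23, 0.71 and 0.47).

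Cadherins and protocadherins were lower in 23 of 61 cases and higher in 5, with a median of -0.48, and axon guidance ligands and receptors in 28 of 70 and 5, with a median of -0.37. Pcdh9 had 323 to 719 CPM in fresh and 166 to 454 CPM in fixed replicates (-0.71 ± 0.12), and Epha4, a receptor of ephrins, 1128 to 1860 and 681 to 1127 CPM (-0.57 ± 0.10). Those that were higher were Pcdhb13, Cdh2, Pcdhb6, Cdh9 and Pcdh8 (0.38 to 1.82) and Sema3b, Unc5a, Sema3e, Nrp1 and Epha7 (0.26 to 1.78), of which Epha7 was no longer called under most alternatives. Chromatin modifiers, most of them encoded by long mRNAs, had 31 of 76 members lower and 9 higher, with a median of -0.38. Ash1l, a histone methyltransferase, had 567 to 1203 CPM in fresh and 56.8 to 235 CPM in fixed replicates (-2.13 ± 0.14; edgeR, adjusted p = 2.02e-24) and Chd9, a remodelling enzyme, -1.99 ± 0.22. The higher members of the channel, cadherin and guidance lists were named after their values were seen.

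Many of these transcripts are long. The quintile of the longest transcripts held 42 of the 76 chromatin modifiers, 20 of the 29 sodium, calcium and HCN channels, 34 of the 70 guidance genes, 21 of the 61 cadherins and 12 of the 34 potassium channels, and over all protein-coding genes 41.7% of that quintile were lower and 10.5% higher, with a median of -0.47. The list members in it had medians of -0.47, -0.58, -0.58, -0.50 and -0.59 in the same order, so that the chromatin modifiers among them were at the level of the quintile. What part of the fall goes with length was not tested.

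Synaptic vesicle genes had no common direction in edgeR, and other synaptic and cytoskeletal lists were divided to different degrees. Synaptic vesicle and exocytosis genes had 19 of 71 members higher and 19 lower, with a median of 0.04, which became -0.21 with the size factors of DESeq2. DESeq2 itself called 13 of them higher and 26 lower. Rab3a, a small GTPase of vesicles, rose from 153 to 296 CPM to 652 to 1229 CPM (2.21 ± 0.10). Syt1, the calcium sensor of release, had 1903 to 3173 CPM in fresh and 1055 to 2121 CPM in fixed replicates (-0.55 ± 0.10), and Slc17a7, the vesicular glutamate transporter of these neurons, 243 to 520 and 27.5 to 188 CPM (-2.07 ± 0.19). Ionotropic glutamate receptors had 7 of 16 members lower and 2 higher, with a median of -0.36, and in DESeq2 11 lower and 1 higher. Gria2, the most abundant, had 2015 to 3355 and 1419 to 3505 CPM (-0.13 ± 0.10; edgeR, adjusted p = 0.266), which became -0.42 and was called with the correction for repeated UMIs, Gria1 -0.31 ± 0.09 and Grin1 -1.82 ± 0.52, while Grik5 (2.43 ± 0.24) and Grin2b (0.45), named after its value was seen, were higher. GABA-A receptor subunits had 3 of 12 members higher, 2 lower and 7 not called, with a median of -0.06, and in DESeq2 1 higher and 6 lower. Gabra2, a subunit that was higher, had 326 to 638 and 724 to 1364 CPM (1.21 ± 0.10), without overlap. A further lower member of the glutamate receptor list, Grin1os, is antisense to Grin1 and cannot be told apart from it without strand.

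Map2, the marker protein of dendrites, had 1206 to 1997 CPM in fresh and 485 to 776 CPM in fixed replicates, without overlap (-1.04 ± 0.10; edgeR, adjusted p = 9e-16), and Map1b had -0.54 ± 0.09. Tubb3, a neuronal tubulin, fell from 109 to 228 CPM to 0 to 63.5 CPM (-2.44 ± 0.23). In this list of tubulins, stathmins and microtubule-associated proteins 12 of 31 members were lower and 9 higher. The lower ones include Map4k2, Map4k4 and Map4k5, which are kinases that share only the start of the name. The whole list summed to 11786 to 13025.5 CPM in fresh and 8532 to 10427 CPM in fixed replicates, without overlap. The immediate early genes, which are induced within minutes of activity, had 7 of 20 members higher and 4 lower, namely Arc, Ier5, Nr4a2 and Jun. Arc had a median of 87.4 CPM in fresh and 15.5 CPM in fixed replicates (-1.80 ± 0.31), and Fos was higher (1.57). Fos, Ier5, Nr4a2 and Jun were named after their values were seen.

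Markers of blood, vessels and astrocytes were low in fixed sections. For cells in these bulk samples, fewer cells of a type, less RNA per cell and a smaller part of the RNA counted cannot be told apart. All 3 tested globin genes of the erythrocyte list, Hba-a1, Hbb-bs and Hbb-bt, were lower, and the list summed to 263 to 700 CPM in fresh and 0 to 111 CPM in fixed replicates, without overlap. Hbb-bs had a median of 218 CPM in fresh replicates, and fixed replicates had 0 to 73.8 CPM (-4.04 ± 0.40). Genes of mural cells and smooth muscle had 4 of 6 members lower, Acta2, Cspg4, Rgs5 and Vtn, none higher in edgeR, and summed to 181 to 319 and 18.4 to 104 CPM. Endothelial genes had 4 of 10 lower, Ly6c1, Tek, Slco1a4 and Flt1, and none higher in edgeR. Rgs5, a marker of pericytes, had 119 to 222 and 0 to 67.1 CPM (-2.08 ± 0.22) and Ly6c1 had 39.1 to 104 and 0 to 29.3 CPM (-2.26 ± 0.37). Collagens, laminins and other matrix proteins had 18 of 55 members lower and none higher, with a median of -0.82, or -0.76 with 3 members at their bound, and 33 of them fell in the quintile of the longest transcripts. Sparc, a matrix glycoprotein, had 462 to 958 and 148 to 436 CPM (-0.73 ± 0.12), and Hapln1, which links hyaluronan to proteoglycans, -2.23 ± 0.36. Of these 4 lists without a higher call, 1 endothelial gene was higher at an unadjusted p under 0.05 and no gene of the others, and none was higher in DESeq2.

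Astrocyte genes had 11 of 19 members lower and 2 higher, with a median of -0.81, and summed to 9324 to 15018 CPM in fresh and 3229 to 6883 CPM in fixed replicates, without overlap. Beside Aqp4, the glutamate transporters fell. Slc1a3 had 1301 to 3267 and 92.2 to 511 CPM (-2.28 ± 0.12; edgeR, adjusted p = 1.53e-29), and Slc1a2 1859 to 2792 and 802 to 1326 CPM (-0.97 ± 0.10). The members that were higher were Gfap, the filament protein of astrocytes, with 33.2 to 166 and 52.2 to 184 CPM (0.59 ± 0.18), and Mfge8 (0.57), both named after their values were seen. With the size factors of DESeq2 Gfap and Mfge8 had 0.35 and 0.32 and were not called.

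Oligodendrocyte and microglia genes were divided. Of 13 oligodendrocyte genes 5 were lower, Gjc3, Mobp, Mag, Mbp and Cnp, and 4 higher, with a median of -0.18. Opalin, Trf and Cldn11 were among those higher, where the call of Trf was lost under most alternatives. Mbp, a myelin protein whose mRNA is carried into the processes, had 934 to 4134 CPM in fresh and 455 to 3809 CPM in fixed replicates (-0.76 ± 0.13), with overlapping ranges. Of 13 microglia genes 4 were lower, among them Cx3cr1, Itgam and Ctss, 1 was higher, C1qa, and 8 were not called, with a median of -0.06. Cx3cr1, the fractalkine receptor, had 25.4 to 102 and 7.06 to 50.9 CPM (-1.66 ± 0.33). Of the GABA-producing enzymes of interneurons, Gad1 was higher (117 to 205 and 258 to 872 CPM, 1.61 ± 0.12) and Gad2 lower (143 to 262 and 33.2 to 138 CPM, -1.12 ± 0.16). In these paragraphs Tek, Slco1a4, Cspg4, Vtn, Hbb-bt, Opalin, Trf, Cldn11, Gjc3, Mag, Cnp, Itgam, Ctss and C1qa were named after their values were seen.

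The markers of the irradiated regions differed by list. None of 6 CA1 markers was called in edgeR, 1 was higher at an unadjusted p under 0.05 and 1 was lower in DESeq2. Their median was 0.16, or -0.06 with the size factors of DESeq2, with Wfs1 at 0.07 ± 0.20 (edgeR, adjusted p = 0.793). Of 7 CA3 markers Iyd, Bok and Homer3 were higher and Trps1 and Nectin3 lower, with a median of 0.18. Of 8 DG markers Stxbp6, C1ql2, Dsp and Calb1 were higher and Prox1 was lower, with a median of 0.71, while DESeq2 called 1 higher and 1 lower. Calb1, a calcium buffer of granule cells, had 0.69 ± 0.14 and Prox1 -0.78 ± 0.14. With CA1, CA3 and DG each fitted alone, the CA1 markers had medians of 0.25, -1.33 and 0.62. In the same order the DG markers had -0.51, -0.06 and 0.79. The CA3 markers had -0.42, 0.04 and -0.80, each below their 0.18 over all regions. Fewer genes were tested in a region alone, so that these medians need not cover the same members. Iyd, Bok, Homer3, Trps1, Nectin3, Stxbp6, C1ql2 and Dsp were named after their values were seen. Ociad2, Dkk3 and Pdzd2 are further genes with regional expression that the study names. Ociad2 was higher (1.55 ± 0.12), whereas Dkk3 and Pdzd2 had -0.09 ± 0.12 and 0.42 ± 0.22 (edgeR, adjusted p of 0.556 and 0.114, 12 replicates in each group).

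Each region fitted alone gave many calls, while the medians of some gene lists differed between regions. In CA1 3094 of 12653 genes were called (24.5%), in CA3 3555 of 13348 (26.6%) and in DG, where the fixed replicates were deepest, 4663 of 12592 (37%). An interaction of condition and region was called for 88 genes (0.554%), of which 39 had opposite signs in different regions. At an unadjusted p under 0.05 there were 1372 such genes.

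The 4 genes with the smallest p of the interaction were nuclear pseudogenes that share stretches with mitochondrial genes, and the next was Rpl37rt. Gm29216 on chromosome 1, of whose 50-base stretches 97.1% occur in mt-Co1, had a mean of 1809.7 ± 203 CPM (SD, n = 4) in fresh and 359.9 ± 38.2 in fixed CA1, 1348 ± 251 and 5837 ± 1356 in CA3, and 33.4 ± 4.71 and 1706 ± 257 in DG. Replicates of a library differed less from each other than the libraries did. Gm13340 fell in CA1, from 2056 to 689 CPM, and rose in DG, from 141 to 1281 CPM. Gm10925 rose in CA1, from 48.1 to 376 CPM, and fell in CA3, from 758 to 306 CPM. Gm28437, all of whose stretches occur in mt-Co3, went from 2384 to 689 CPM in CA1 and from 2093 to 4029.6 CPM in DG. Since each region and condition is 1 library, these differences cannot be told apart from differences between libraries, and no direction is given for these copies. Other nuclear copies were higher in each of the 3 regions. Gm28438 on chromosome 1, a copy of mt-Nd3, had 9.77 to 48.6 CPM in fresh and 265 to 793 CPM in fixed replicates (4.41 ± 0.15), Gm28661 on chromosome 1, a copy of mt-Co2, 3.08 ± 0.17 and Gm13339 on chromosome 2, which shares 17.6% of its stretches with mt-Nd2, 2.60 ± 0.12.

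Among other genes with an interaction, Ttr, a transport protein of the choroid plexus, varied within libraries as well. It had 2138 to 2620 CPM in 3 of the 4 fresh DG replicates and 47.5 CPM in the other one, and 13.0 to 27.5 CPM in fixed DG, and its summed list ranged from 42.5 to 2743 CPM in fresh and from 0 to 2017 CPM in fixed replicates. Hsp90aa1, a chaperone, was higher in each region, most in CA3, with means of 503 CPM in fresh and 2902 CPM in fixed sections, against 505 and 1147 in CA1 and 374 and 752 in DG (edgeR interaction, adjusted p = 2.13e-09).

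Formalin-fixed paraffin sections and HCl-permeabilized fresh-frozen sections of the same regions, 12 replicates each, offer a further comparison of fixed with unfixed tissue that shares no replicate with the one above. It also differs in embedding and permeabilization, so that the values are set side by side. In paraffin sections 2656 of 17139 genes (15.5%) were higher and 2417 (14.1%) lower. Of the genes higher in fixed frozen sections 80.6% had a positive fold change there, and of those lower 80.0% a negative one, whereas 48.1% of all genes tested in both were positive. Median log2 fold changes were alike for cytosolic ribosomal protein genes (0.96 in fixed frozen and 0.90 in paraffin sections), erythrocyte genes (-4.04 and -5.11), mural cell genes (-2.06 and -2.53) and, in the counts as deposited, mitochondrially encoded mRNAs (1.42 and 1.93). They were unlike for respiratory chain genes (1.14 and 0.24), glycolytic enzymes (0.69 and -0.16), nuclear-retained RNAs (-1.19 and -0.03) and astrocyte genes (-0.81 and -0.11). Malat1 had -2.58 in fixed frozen and -0.14 in paraffin sections, and Atp5b 2.16 and 0.19. Whether the list medians of the 2 comparisons differ was not tested.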

How the data were processed

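PIC with CEL-seq2 libraries was applied to CA1, CA3 and DG of mouse hippocampal sections. The authors deposited one table of UMI counts for 32546 genes and 48 replicates, made per the labels and the study's methods with UMI-tools 1.0.0, Trim Galore!, HISAT2 2.1.0 on GRCm38 and featureCounts 1.6.4. The annotation release is not given in the sources used here, and the counting command that the study prints has no strand option. The authors used DESeq2 1.20.0 between regions. Here genes were placed and classed with GENCODE M21 (GRCm38), in which 32515 identifiers were found, and 742 of 773 genes without a symbol were named from it. Counts as deposited were tested with edgeR 4.0.16 in R 4.3.3 (quasi-likelihood F test, condition plus region, 24 replicates, at least 10 UMIs in sum, Benjamini-Hochberg adjusted p under 0.05). TMM factors were taken from genes averaging 10 UMIs or more. In simulated counts (15541 genes), few genes were changed, as many up as down. There 16.5% of the calls with TMM over all genes were false, and unchanged genes had a median of -0.143. With the setting used here these values were 0.952% and -0.0107, and 42.3% of 2-fold and 66.3% of 4-fold changes were recovered. In the real data far more genes were called, and unevenly, so that the simulation cannot decide which scaling suits them. The choice of TMM factors was made after the first fit of the real data, with TMM over all genes, had been seen (7733 calls, 2505 higher and 5228 lower). Class shares were compared with permutation tests (100000 resamples within regions, two-sided) and, per region, with exact permutation tests. The bounds given for genes without UMIs cover counting error only, whereas the SEs include the spread between replicates. Alternatives were DESeq2 1.42.0, other scalings and filters, thinning to 52800 UMIs, a correction for repeated UMIs, summed libraries, a replicate block and left-out replicates.

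The members and gene lists were chosen with earlier results of these data known. Named genes were the 10 largest changes in each direction among genes averaging 10 UMIs and of one sign in the 3 regions, 5 in each direction with at least 100 UMIs, the most abundant and most changed members of each list, of which a subset is given, Gapdh and the genes the study names, and the 5 smallest interaction p-values. Genes said to be named after their values were seen fall outside this rule. Same-numbered replicates of a region had correlations of 0.0162 to 0.0995 between fresh and fixed deviations, under 0.1, and were not treated as pairs. Some results are not reported here.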

Additional observations from a re-analysis of the deposited data

Results flagged for a closer look

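Some replicates stood apart from the other 3 of their library in the share of a transcript class. Replicate 1 of fresh DG had 0.0701% of its UMIs in unnamed long noncoding entries, against 0.0818% to 0.0842% in the others, and replicate 4 of fixed CA3 had 0.261%, against 0.223% to 0.228%. Replicate 1 of fixed CA3 had 1.84% in processed pseudogenes, against 1.66% to 1.69%. With 66 groups of 4 examined, about 1 in 20 stands apart by chance.

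The difference between fixed and fresh sections varied between regions for 88 genes by the interaction test of edgeR. Among genes named here, adjusted p-values of the interaction were 3.83e-63 for Gm29216, 2.21e-40 for Gm13340, 2.6e-30 for Gm10925, 9.9e-26 for Gm28437, 4.88e-23 for Gm28661 and 0.0139 for Gm13339, which are nuclear pseudogenes with stretches of mitochondrial genes. Copies and parents of ribosomal genes had 1.74e-25 for Rpl37rt, 0.0372 for Rpl37 and 0.0167 for Gm9843 (edgeR, adjusted). Myelin genes had adjusted edgeR p-values of 0.000275 for Cldn11, 0.0131 for Opalin and 0.0131 for Mag, and Ttr of the choroid plexus had 1.31e-17. The remaining values were 2.13e-09 for Hsp90aa1, 1.81e-05 for Psmb5, 0.0172 for Slc17a7 and 0.0496 for Gm26825 (edgeR, adjusted). Region and library cannot be told apart in these values.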

How the results depend on the processing

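Of 181 genes named, 51 lost the call under at least one alternative, 4 gained it and 4 reversed, and the others kept their direction and their side of the threshold under every alternative. Against 7326 calls in all regions, there were 4343 of 6486 genes with filterByExpr, 4143 of 6379 with a refit on genes averaging 10 UMIs, and 3543 of 10081 after thinning, with fewer genes or UMIs. Leaving out a replicate number gave 5724 to 6797. TMM over all genes tested, the setting first used, gave 7733 calls, 2505 higher and 5228 lower, and the size factors of DESeq2 7863, 2469 higher and 5394 lower, against 3266 and 4060. The median over all genes was between -0.42 and 0.0096 across scalings and filters, so that small changes depend on them. The replicate block gave 7647 calls in all regions. Correlations between same-numbered fresh and fixed replicates were weak, 0.0162 to 0.0995, and all positive. All 24 within replicates 1 and 4 or within 2 and 3 were positive, and all 24 between these sides were negative. The deviations are centred within each group of 4 replicates, so that these correlations depend on each other. The sides were not planned.

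Thinning gave 1220 calls in CA1, 1499 in CA3 and 1359 in DG, and leaving out a replicate in CA1 1956 to 2732. The 88 interaction calls became 135 with DESeq2, 18 after thinning, 207 with the replicate block and 41 to 100 without single replicates, so that their number is not firm. The difference in the protein-coding share (fixed minus fresh, percentage points) was 0.307 with the correction for repeated UMIs and 0.322 outside mitochondrially encoded genes, and that of mitochondrial rRNA was -2.52 with the correction. Mitochondrial tRNA had 0.0011 points after thinning. Small RNA had 0.000316 points after thinning, 0.000872 with the correction and -0.0106 to 0.0055 without a replicate. The correlation of log2 fold change with mean UMIs was -0.117 after thinning.

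Reversed log2 fold changes were -0.66 for mt-Rnr2 with the correction. For Gapdh they were -0.089 with DESeq2, -0.079 with its size factors, -0.019 with totals only, -0.077 with TMM over all genes and -0.175 to 0.387 without a replicate. For Wfs1 they were -0.372 with DESeq2, -0.163 with its size factors, -0.086 with totals only, -0.205 after thinning, -0.166 with TMM over all genes and -0.313 to 0.219 without a replicate. Trf had -0.027 to 0.805 without a replicate. The cause of these changes was not tested. Depth limits genes with few UMIs, since a fixed replicate held as few as 52800.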
